A study of Mus musculus with 9 samples.

Results

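The genes described are the integrins, the receptors through which cells hold on to the extracellular matrix, and the laminins, matrix proteins of basement membranes that several integrins bind. Members were all probe sets whose single symbol in the platform's probe-to-gene table begins with Itga or Itgb, or is Lama, Lamb or Lamc followed by a digit. This gave 42 probe sets with 41 symbols, of 21780 probe sets with 1 symbol and 23397 with at least 1. They comprise 19 integrin alpha, 9 integrin beta, 5 laminin alpha, 3 laminin beta and 2 laminin gamma probe sets, plus 4 that share only the start of the name (Itgb1bp1, Itgb1bp2, Itgb3bp and Itgbl1). Itgad has 2 probe sets and every other gene 1. The 3 probe sets that list Itgam together with a second gene fell outside the rule and were not analysed here.

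The study cultured mouse aortic valves with an activator or a blocker of retinoic acid signalling, and measured RNA on 9 one-colour arrays. Valves came from C57BL/6J pups at postnatal day 1, and each array held the pooled valves of 5 to 6 pups kept for 48 h on floating filters in serum-containing medium. The 3 groups of 3 arrays received all-trans retinoic acid (ATRA, 1 µmol/L, dissolved in DMSO), LE540, an antagonist of retinoic acid receptors whose dose and vehicle the labels do not state, or DMSO alone (0.001%). All groups therefore are cultured explants, and a pool gives no value for a single pup.

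Integrins are pairs of an alpha and a beta chain, and the alpha chain largely sets the ligand: collagen for some, laminin for others, fibronectin or proteins with the same arginine-glycine-aspartate motif for others again, and ligands on other cells for the leukocyte integrins. Laminins are trimers of an alpha, a beta and a gamma chain that self-assemble into the sheet on which endothelial, muscle and epithelial cells rest. In the aortic valve, interstitial cells live in layers of collagen, proteoglycan and elastin under an endothelial covering, and integrins transmit the load of the leaflet to them. Lamb1 is a textbook retinoic acid-responsive gene in mouse F9 teratocarcinoma cells.

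The labelled tissue was checked against marker genes. All 12 markers of valve interstitial cells lay above the array median on every array, and their summed intensity ran from 28687 to 32520 on ATRA arrays, from 15338 to 24830 on LE540 arrays and from 21819 to 27662 on DMSO arrays. Cardiomyocyte RNA was present too, with 8 of 13 markers above the median on every array. Of 8 measured retinoic acid target genes, 3 rose in ATRA vs DMSO, Tgm2, Dhrs3 and Cyp26a1 (adjusted p = 0.000228, 0.0508 and 0.0512). No target gene passed in LE540 vs DMSO, and none had an unadjusted p under 0.05 in limma. LE540 replicate 1 stood apart from the other arrays: on the first principal component (31.7% of the variance) it lay at 70.0, against -22.7 to 15.6 for the rest. In tissue RNA, fewer cells of a type and less RNA per cell cannot be told apart.

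Only Itga1 passed the test in any comparison, and with replicate numbers as a block Itga4 and Itgb5 passed beside it, all in ATRA vs LE540. Their promoters are shown because these are the members on which the results turn. The 250 bases before the transcription start come from the RefSeq promoter table (GRCm38.p6), 5′ to 3′ on the gene's strand: Itga1 at chr13:115101965-115102214 (minus strand), Itga4 at chr2:79255176-79255425 (plus strand) and Itgb5 at chr16:33829415-33829664 (plus strand). Capitals mark a retinoic acid receptor half-site.
Itga1: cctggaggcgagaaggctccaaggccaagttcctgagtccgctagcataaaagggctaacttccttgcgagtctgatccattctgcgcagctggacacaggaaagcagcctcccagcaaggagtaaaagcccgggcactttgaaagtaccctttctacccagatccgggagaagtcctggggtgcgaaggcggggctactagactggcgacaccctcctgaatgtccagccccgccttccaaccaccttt
Itga4: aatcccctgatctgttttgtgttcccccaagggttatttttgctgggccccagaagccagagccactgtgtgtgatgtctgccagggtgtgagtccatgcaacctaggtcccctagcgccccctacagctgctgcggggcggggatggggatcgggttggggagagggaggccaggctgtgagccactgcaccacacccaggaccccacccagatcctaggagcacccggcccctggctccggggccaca
Itgb5: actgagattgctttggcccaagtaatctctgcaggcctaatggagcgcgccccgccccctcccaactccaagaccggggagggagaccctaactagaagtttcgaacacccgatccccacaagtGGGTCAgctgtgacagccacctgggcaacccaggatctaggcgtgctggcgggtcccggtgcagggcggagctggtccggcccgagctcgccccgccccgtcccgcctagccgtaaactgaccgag

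The half-sites searched were AGGTCA, which is the consensus, and the variants AGTTCA as well as GGGTCA and also GGTTCA, on both strands. The Itgb5 promoter held 1, GGGTCA, which starts 126 bases before the transcription start, and the Itga1 and Itga4 windows held none. Of the 30 promoters that the table lists for 27 member genes, 10 held at least 1 half-site (33.3%), against 12694 of all 32851 promoters (38.6%). A direct repeat of half-sites with a spacer of 2 or 5 bases, the arrangement retinoic acid receptors typically bind, stood in 0 of the 30, against 0.174% and 0.0883% of all promoters. A match of letters is a description of the window and says nothing about binding.

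The first comparison asks what added retinoic acid did. In ATRA vs DMSO, 0 of 42 members passed at an adjusted p under 0.1 in limma, where 0.0812% of all probe sets passed, and 4 had an unadjusted p under 0.05 (9.52%, against 4.7% of all). Of these, 3 were higher (Itga1, Itgb2 and Itgb5, against 2.34% of all probe sets) and 1 was lower (Itga10, against 2.36%). With a fold change over 2 asked for as well, as in the design text, 0 members passed (0.0598% of all). Above 0 lay 18 of 42 members (48.5% of all probe sets). The ATRA and DMSO arrays did not overlap for 4 members (11.3% of all), all lower with ATRA (6.34% of all): Itga10, Itgae, Itgav and Itgax. The median log2 change was -0.02 over the 28 integrin probe sets and -0.05 over the 10 laminin probe sets, against -0.01 over all 23397. With replicate numbers as a block, 0 members passed (0.124% of all) and 7 had an unadjusted p under 0.05 (6.55% of all), with Itga2 and Itga4 added on the higher side and Itga11 on the lower.

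Blocking the receptors is the subject of the second comparison. In LE540 vs DMSO, 0 of 42 members passed in limma (0.0299% of all probe sets passed) and 6 had an unadjusted p under 0.05 (14.3%, against 8.8% of all). Itga1, Itga3, Itga4, Lama5 and Lamc1 were lower (4.33% of all probe sets) and Itgb1bp1 was higher (4.47% of all). At a fold change over 2 as well, 0 members passed (0.0299% of all). The LE540 and DMSO arrays did not overlap for 7 members (12.6% of all), of which 6 were lower (5.86% of all), Itga1, Itga10, Itga3, Lama5, Lamb1 and Lamc3, and 1 was higher (6.74% of all), Itgb1bp1. Below 0 lay 33 of 42 members (78.6%, against 45.3% of all probe sets), 22 of 28 integrins and 8 of 10 laminins. The median log2 change was -0.13 for integrins and -0.28 for laminins, against 0.02 for all probe sets. Without LE540 replicate 1 these medians were -0.14 and -0.17, against -0.01, and 31 of 42 members lay below 0, against 12127 of all 23397 probe sets. The 6 members with an unadjusted p under 0.05 became 4 without that array, Itga1, Itga3, Lama5 and Lamb1. Here and below, the share of all probe sets with such a p was not counted for fits that leave out an array.

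The last comparison sets the 2 treatments against each other. It shares its arrays with the comparisons above, which in turn share the DMSO arrays. In ATRA vs LE540, 1 of 42 members passed, Itga1, where 0.603% of all probe sets passed. Its 1.77-fold change was under the 2-fold limit, so 0 members met both criteria (0.419% of all). An unadjusted p under 0.05 was found for 10 members, all higher with ATRA (23.8%, against 9.54% of all probe sets in either direction and 4.82% in that direction): Itga1, Itga2, Itga3, Itga4, Itgb2, Itgb3, Itgb5, Lama4, Lama5 and Lamb1. Above 0 lay 25 of 42 members (43.1% of all). The ATRA and LE540 arrays did not overlap for 9 members (11.5% of all), of which 8 were higher with ATRA (5.24% of all), Itga1, Itga2, Itga3, Itga4, Itgb2, Itgb5, Lama5 and Lamb1, and 1 was lower (6.24% of all), Itga10. With replicate numbers as a block 3 members passed, Itga1, Itga4 and Itgb5 (0.945% of all), each higher with ATRA, and 13 had an unadjusted p under 0.05 (11.9% of all), with Itgb8, Itgbl1 and Lamb2 added. Lama4, Lama5 and Lamb1 were the laminins among the 10, and the median of the laminin family was 0.13, against 0.03 for integrins and -0.03 for all probe sets. Without LE540 replicate 1 the 10 became 6, Itga1, Itga3, Itga4, Itgb2, Itgb5 and Lamb1, so that Lama4 (unadjusted p = 0.161 in limma) and Lama5 (0.0517) no longer counted, and the laminin median was 0.07.

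**Figure D1:**
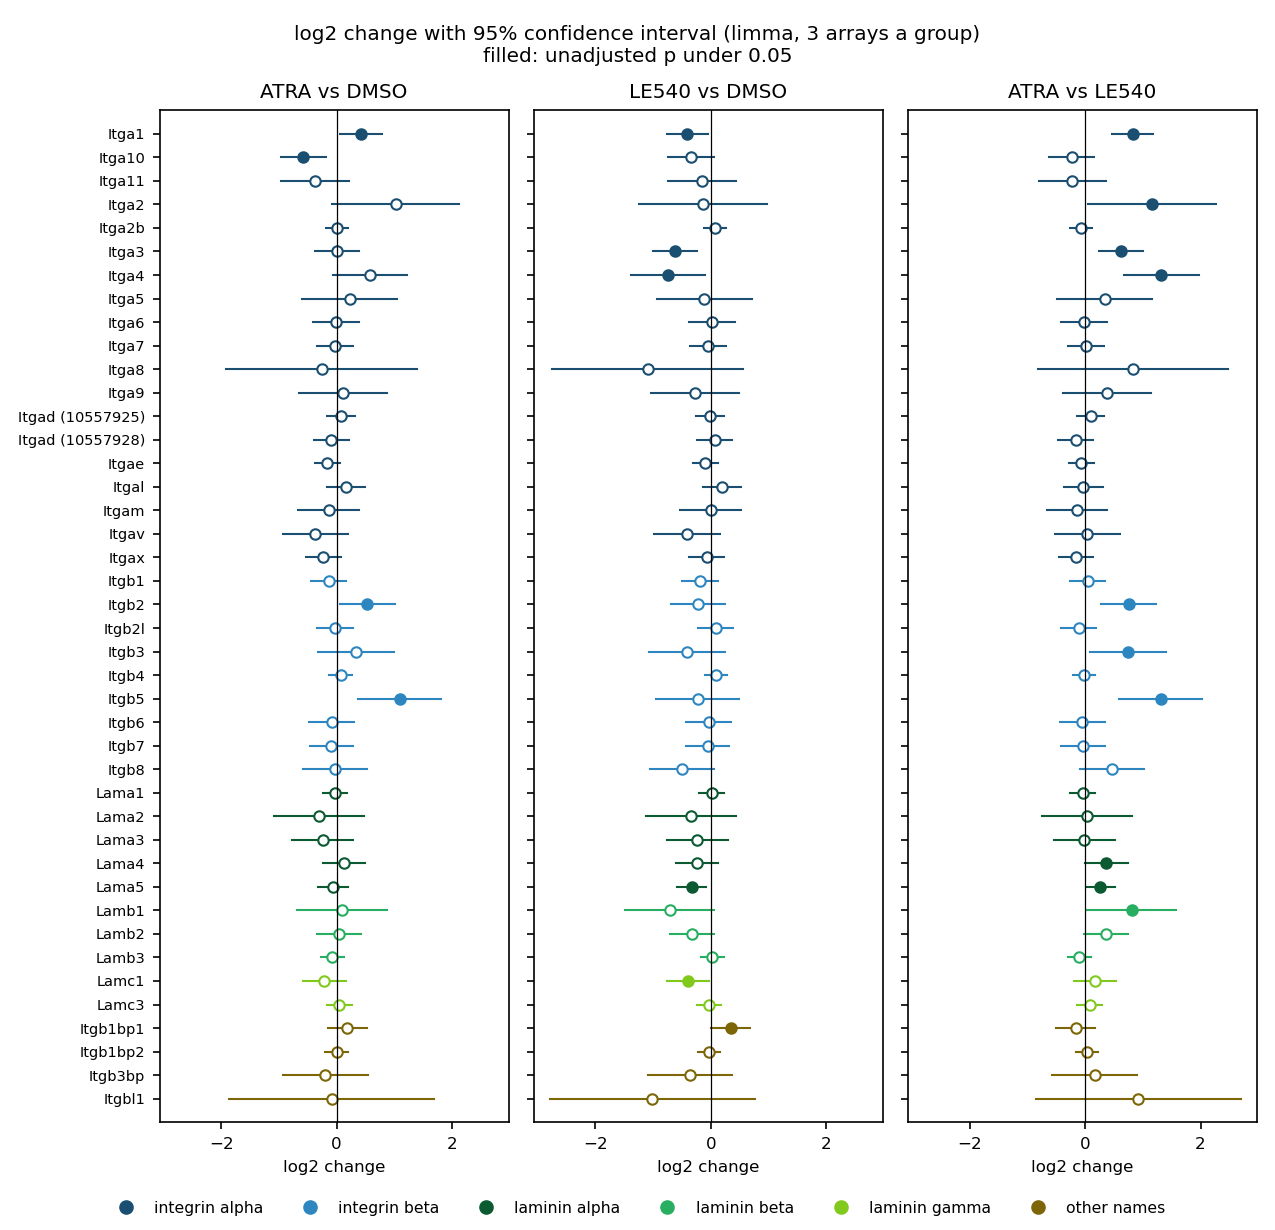
log2 change of each of the 42 integrin and laminin probe sets (points) in ATRA vs DMSO, in LE540 vs DMSO and in ATRA vs LE540, with 95% confidence intervals (bars), from limma over 3 arrays a group. Colours mark families, and filled points have an unadjusted p under 0.05. All 10 filled points of ATRA vs LE540 lie above 0, and 5 of the 6 filled points of LE540 vs DMSO lie below it.

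Collagen-binding alpha chains pair with Itgb1, and Itga1 (probe set 10412298), the receptor chain best known for basement membrane collagen, carried the clearest difference. Its intensity was 473, 571 and 380 on the ATRA arrays, 275, 249 and 268 on the LE540 arrays, and 350, 394 and 310 on the DMSO arrays. Every LE540 array lay below every DMSO and every ATRA array, while the lowest ATRA array overlapped the DMSO group. Itga1 rose 1.77-fold in ATRA vs LE540, with means of 475 ± 95.3 and 264 ± 13.7 (SD, n = 3 arrays each, log2 change 0.83, SE 0.16, limma adjusted p = 0.0957). Its log2 change was 0.42 in ATRA vs DMSO (unadjusted p = 0.0255, adjusted p = 0.986 in limma) and -0.41 in LE540 vs DMSO (unadjusted p = 0.0301, adjusted p = 0.541 in limma). The call in ATRA vs LE540 was kept in 1 of the 9 fits that leave out an array, that without ATRA replicate 3 (adjusted p = 0.0782), and was lost in the other 8 (up to 0.267), with log2 changes of 0.68 to 0.98 over the 9.

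Itga2 (10412267), the collagen receptor chain of platelets and many epithelia, is the neighbouring gene of Itga1 in the RefSeq annotation of chromosome 13. Its values were 272, 973 and 238 on ATRA arrays, 218, 148 and 176 on LE540 arrays, and 193, 264 and 148 on DMSO arrays. ATRA replicate 2 stood alone at the top, 6.59 times LE540 replicate 2, while the same ratio was 1.25 and 1.35 for replicates 1 and 3. On the log2 scale the change in ATRA vs LE540 was 1.16 (SE 0.49, adjusted p = 0.496 in limma) and 0.52 without ATRA replicate 2, and that in ATRA vs DMSO was 1.02 with it and 0.38 without it. The summed intensity of 12 endothelial markers was also highest on ATRA replicate 2, at 6102, against 1765 to 3552 on the other arrays. The sum of 4 platelet and megakaryocyte markers was highest there too, at 905, against 296 to 729 on the other arrays. So was that of 9 epithelial and mesothelial markers, at 1284, against 908 to 1251. The leukocyte, cardiomyocyte, smooth muscle, Schwann and neural crest, and valve interstitial sums were highest on other arrays. The part of these sums in the Itga2 value was not tested.

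Itga10 (10494467), a collagen receptor chain of cartilage, was ordered the other way. It read 183, 160 and 198 on ATRA arrays, 209, 200 and 224 on LE540 arrays, and 354, 226 and 239 on DMSO arrays. The 3 groups did not overlap, with ATRA lowest and DMSO highest, and DMSO replicate 1 was well above the rest. In ATRA vs DMSO its log2 change was -0.58 (SE 0.17, unadjusted p = 0.00908, adjusted p = 0.817 in limma), or -0.37 without DMSO replicate 1.

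Itga11 (10586079), the fibroblast chain for fibrillar collagen, measured 122, 180 and 186 on ATRA arrays, 148, 256 and 171 on LE540 arrays, and 174, 269 and 190 on DMSO arrays. All 3 groups overlapped, and replicate 1 was the lowest of each. In ATRA vs DMSO the log2 change was -0.37 (SE 0.26, adjusted p = 0.999), and the same value had an unadjusted p of 0.0324 with the replicate block (adjusted p = 0.71, limma).

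Laminin-binding alpha chains differed among themselves. Itga3 (10390117), a receptor chain of epithelial and vascular cells for laminins that hold Lama5, gave 299, 228 and 260 on ATRA arrays, 190, 179 and 142 on LE540 arrays, and 216, 297 and 270 on DMSO arrays. Each LE540 array lay below each array of both other groups, and the ATRA and DMSO arrays overlapped. The fitted log2 change was -0.62 in LE540 vs DMSO (SE 0.17, unadjusted p = 0.00522, adjusted p = 0.443 in limma), 0.63 in ATRA vs LE540 (SE 0.17, adjusted p = 0.248) and 0.01 in ATRA vs DMSO (SE 0.17, adjusted p = 0.999). It did not rest on LE540 replicate 1, since the change in LE540 vs DMSO was -0.70 without that array.

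Itga6 (10472820), which pairs with Itgb1 or Itgb4, and Itga7 (10367440), the muscle laminin receptor chain, had overlapping groups. Itga6 ran from 433 to 467 on ATRA arrays, from 398 to 526 on LE540 arrays and from 348 to 543 on DMSO arrays. Its log2 change came to -0.01 in ATRA vs DMSO (95% confidence interval -0.41 to 0.39), 0.01 in LE540 vs DMSO (-0.39 to 0.41) and -0.02 in ATRA vs LE540 (-0.42 to 0.38). Itga7 lay between 108 and 151 on all arrays, close to the array median, with log2 changes of -0.03 in ATRA vs DMSO, -0.05 in LE540 vs DMSO and 0.02 in ATRA vs LE540.

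Itga4 (10473125) is the chain that binds fibronectin and Vcam1, and it guides the attachment of the epicardium in the mouse embryo. Its intensity was 270, 172 and 346 on ATRA arrays, 89.5, 81.9 and 141 on LE540 arrays, and 140, 182 and 189 on DMSO arrays. No ATRA array overlapped the LE540 arrays, the lowest LE540 arrays were below the array median of 124 to 128, and in both comparisons with DMSO the groups overlapped. The ratio of ATRA to LE540 was 3.02, 2.11 and 2.46 for replicates 1, 2 and 3. Its log2 change in ATRA vs LE540 was 1.32 (SE 0.28, adjusted p = 0.153 in limma), a 2.50-fold difference, and with replicate numbers as a block it passed (adjusted p = 0.0667). It was 0.58 in ATRA vs DMSO (SE 0.28, adjusted p = 0.999) and -0.74 in LE540 vs DMSO (SE 0.28, unadjusted p = 0.0288, adjusted p = 0.541 in limma). Its counter-receptor Vcam1, an adhesion molecule on cell surfaces, averaged 3449 ± 621 on ATRA arrays, 1651 ± 547 on LE540 arrays and 2360 ± 303 on DMSO arrays (SD, n = 3 each), with a log2 change of 1.11 in ATRA vs LE540 (SE 0.26, adjusted p = 0.181 in limma).

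Itga9 (10590031), a receptor chain for tenascin and the fibronectin segment made in embryos, read 204, 328 and 240 on ATRA arrays, 111, 269 and 240 on LE540 arrays, and 203, 296 and 211 on DMSO arrays. The 3 groups overlapped, replicate 1 was lowest and replicate 2 highest in each, and LE540 replicate 1 was the lowest array of all. On the log2 scale the change was -0.28 in LE540 vs DMSO (SE 0.33) and 0.11 in ATRA vs DMSO (SE 0.33), with no pass in either (adjusted p = 0.816 and 0.999, limma). Without LE540 replicate 1 the value in LE540 vs DMSO turned to 0.12, and without ATRA replicate 2 that in ATRA vs DMSO turned to -0.08.

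Among the chains that recognise the arginine-glycine-aspartate motif, Itga5 (10433114), the main fibronectin receptor chain, differed more between replicate numbers than between treatments. It measured 296, 515 and 305 on ATRA arrays, 186, 366 and 339 on LE540 arrays, and 249, 488 and 240 on DMSO arrays. Replicate 2 was the highest of every group. The log2 change was 0.22 in ATRA vs DMSO (95% confidence interval -0.60 to 1.05) and -0.11 in LE540 vs DMSO (-0.94 to 0.71), and without LE540 replicate 1 the second of these was 0.19. Without ATRA replicate 2 the first was -0.03.

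Itgav (10473281), the chain shared by the vitronectin receptors and by the integrins that activate latent TGF-beta, was lower on every ATRA array than on any DMSO array. Its values were 1018, 1073 and 1264 on ATRA arrays, 746, 1029 and 1653 on LE540 arrays, and 1443, 1533 and 1351 on DMSO arrays. The LE540 arrays spread across both other groups. The fitted log2 change in ATRA vs DMSO was -0.37 (SE 0.25, adjusted p = 0.999 in limma), and the wide LE540 group enters its error, since the fit shares 1 estimate of the spread. In LE540 vs DMSO it was -0.41 (SE 0.25), or -0.14 without LE540 replicate 1.

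Itga8 (10480090), a receptor chain for nephronectin found on mesenchymal and smooth muscle cells, had the widest spread of the alpha chains. It gave 209, 128 and 722 on ATRA arrays, 63.5, 218 and 247 on LE540 arrays, and 312, 192 and 554 on DMSO arrays. Replicate 3 was the highest of each group, and the groups overlapped. Its log2 change was -0.26 in ATRA vs DMSO (SE 0.73), -1.09 in LE540 vs DMSO (SE 0.73, -0.47 without LE540 replicate 1) and 0.83 in ATRA vs LE540 (SE 0.73). The value in ATRA vs LE540 was 0.21 without LE540 replicate 1 and 0.12 without ATRA replicate 3, and that in ATRA vs DMSO ran from -0.97 without ATRA replicate 3 to 0.28 without ATRA replicate 2. Intervals of this width, -1.91 to 1.39 in ATRA vs DMSO, allow sizeable changes either way.

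**Figure D2:**
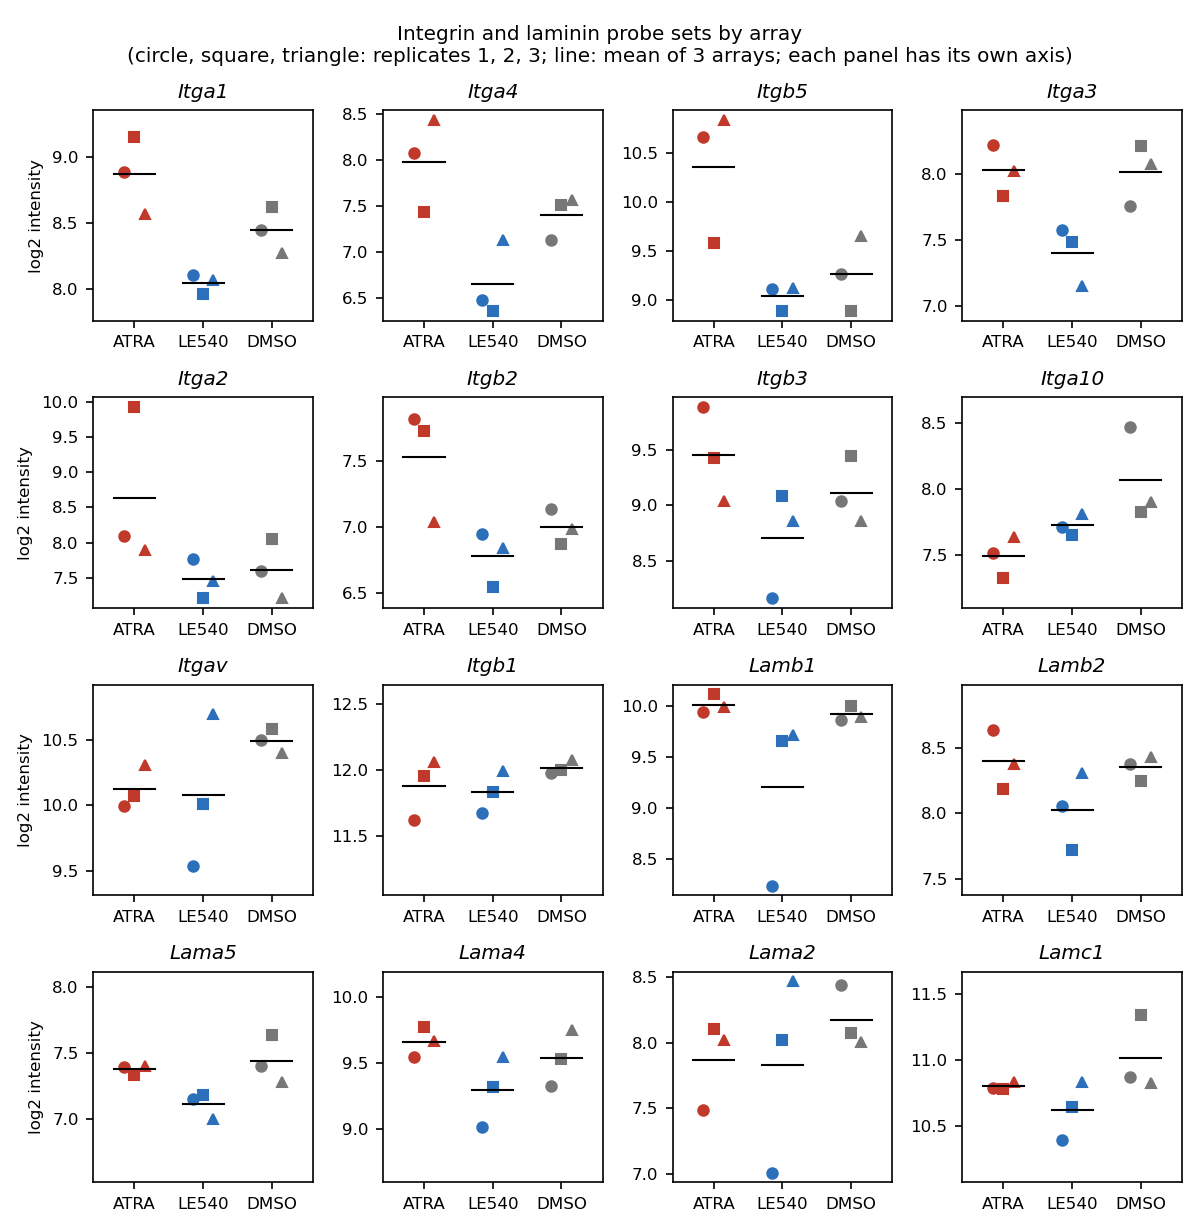
log2 intensity of 16 integrin and laminin probe sets on each array (points; circle, square and triangle for replicates 1, 2 and 3), by group, with the mean of 3 arrays (line); each panel has its own axis. Itga1, Itga3 and Lama5 show every LE540 array below every array of the other 2 groups, Itgb5 shows ATRA replicates 1 and 3 at the top, and Lamb1 shows LE540 replicate 1 alone at the bottom.

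Beta chains are fewer, and Itgb5 (10435305), which pairs with Itgav to bind vitronectin and latent TGF-beta, showed the largest log2 change of the beta chains in ATRA vs DMSO and in ATRA vs LE540. It read 1612, 768 and 1822 on ATRA arrays, 556, 474 and 559 on LE540 arrays, and 614, 476 and 803 on DMSO arrays. Replicates 1 and 3 of ATRA were far above all other arrays, while ATRA replicate 2 lay above the LE540 arrays and within the DMSO range. Replicate 2 was the lowest and replicate 3 the highest in each group, and the ratio of ATRA to DMSO was 2.62, 1.61 and 2.27 for replicates 1, 2 and 3. On the log2 scale the change in ATRA vs DMSO was 1.09 (SE 0.32, unadjusted p = 0.00767, adjusted p = 0.758 in limma) and, with the replicate block, it did not pass either (adjusted p = 0.275). In ATRA vs LE540 it was 1.31 (SE 0.32, adjusted p = 0.192), a 2.48-fold difference, which passed with the replicate block (adjusted p = 0.0622). In LE540 vs DMSO it was -0.22 (SE 0.32, adjusted p = 0.847).

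Itgb3 (10381809), the other vitronectin receptor partner of Itgav, measured 945, 687 and 525 on ATRA arrays, 286, 543 and 464 on LE540 arrays, and 525, 698 and 463 on DMSO arrays. LE540 replicate 1 was the lowest and ATRA replicate 1 the highest array, and the ratio between these arrays was 3.30, against 1.27 and 1.13 for replicates 2 and 3. In ATRA vs LE540 the log2 change was 0.75 (SE 0.29, unadjusted p = 0.0296, adjusted p = 0.454 in limma), or 0.48 without LE540 replicate 1 (unadjusted p = 0.11). It was 0.34 in ATRA vs DMSO (0.12 without ATRA replicate 1) and -0.41 in LE540 vs DMSO (-0.14 without LE540 replicate 1), with an SE of 0.29 each over all arrays.

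Itgb1 (10576661), the partner of most alpha chains on the list, varied little. Its intensity was 3150, 3975 and 4274 on ATRA arrays, 3273, 3652 and 4082 on LE540 arrays, and 4033, 4100 and 4330 on DMSO arrays. The groups overlapped, and in each of them replicate 1 was lowest and replicate 3 highest. The fitted log2 change was -0.14 in ATRA vs DMSO (95% confidence interval -0.45 to 0.17), -0.18 in LE540 vs DMSO (-0.49 to 0.12) and 0.04 in ATRA vs LE540 (-0.26 to 0.35).

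Itgb8 (10403229), which with Itgav releases active TGF-beta, had 164, 272 and 271 on ATRA arrays, 133, 154 and 224 on LE540 arrays, and 234, 209 and 262 on DMSO arrays. The LE540 arrays lay toward the low end but reached into both other groups. Its log2 change came to -0.50 in LE540 vs DMSO (SE 0.24, adjusted p = 0.591 in limma) and 0.47 in ATRA vs LE540 (SE 0.24, adjusted p = 0.602), where it stood at an unadjusted p of 0.0342 with the replicate block (adjusted p = 0.363). These values were -0.34 and 0.31 without LE540 replicate 1.

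Itgb4 (10382713), the hemidesmosome chain, lay between 115 and 136 on all arrays, near the array median. Itgb6 (10483000), the epithelial TGF-beta activator, was below the median on every array, at 34.4 to 52.2. Their log2 changes ranged from -0.09 to 0.09 over the 3 comparisons, and 0 of these had an unadjusted p under 0.05 in limma.

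The leukocyte and platelet members were mostly dim. Itgal, Itgam, Itgax and both probe sets of Itgad, the alpha chains of the leukocyte integrins, and Itgae and Itgb7, chains of lymphocytes at mucosal surfaces, lay below the array median on all 9 arrays. How far such values stand over background is unknown. Itgam, Itgax and Itgad are neighbours on chromosome 7. Itgal read 91.5, 89.0 and 90.9 on ATRA arrays, 85.3, 102 and 90.7 on LE540 arrays, and 63.9, 90.0 and 91.8 on DMSO arrays, with no order of the groups. Itgam ranged from 37.7 to 69.4 on ATRA arrays, from 55.8 to 63.4 on LE540 arrays and from 48.2 to 69.5 on DMSO arrays. For Itgax the ranges were 53.1 to 64.4 on ATRA arrays, 58.4 to 76.0 on LE540 arrays and 66.5 to 77.7 on DMSO arrays, so that ATRA and DMSO did not overlap (log2 change -0.23, SE 0.13, adjusted p = 0.999 in limma). Itgae, which averaged 60.6 ± 4.06 on ATRA arrays and 67.7 ± 4.24 on DMSO arrays (SD, n = 3 each), had the same lack of overlap. The Itgad probe sets differed in sign in each comparison, at 0.08 and -0.09 in ATRA vs DMSO.

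Itgb2 (10364262), the beta chain common to the leukocyte integrins, was the exception among these. It measured 226, 212 and 131 on ATRA arrays, 123, 93.4 and 114 on LE540 arrays, and 140, 117 and 127 on DMSO arrays. ATRA replicates 1 and 2 were above all other arrays, and ATRA replicate 3 was within the DMSO range. Its log2 change was 0.75 in ATRA vs LE540 (SE 0.21, unadjusted p = 0.00572, adjusted p = 0.262 in limma) and 0.53 in ATRA vs DMSO (SE 0.21, adjusted p = 0.999). Without ATRA replicate 3 it was 1.00 in ATRA vs LE540 and passed (adjusted p = 0.081). The summed intensity of 15 leukocyte markers was 3137, 5545 and 5553 on ATRA arrays, 3761, 4415 and 5391 on LE540 arrays, and 4813, 3412 and 6540 on DMSO arrays. The part of leukocyte content in the Itgb2 value was not tested.

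Itga2b (10391697), the platelet partner of Itgb3, lay between 133 and 150 on all arrays, with log2 changes of 0.01 in ATRA vs DMSO, 0.07 in LE540 vs DMSO and -0.06 in ATRA vs LE540. Of 4 platelet and megakaryocyte markers, 3 were below the array median on every array. Itgb2l (10441178), a relative of Itgb2, ranged from 110 to 159 with its highest value on LE540 replicate 1.

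Laminin chains are taken in the order alpha, beta and gamma. Lama2 (10368409), the alpha chain of the muscle basement membrane, gave 180, 275 and 260 on ATRA arrays, 129, 259 and 354 on LE540 arrays, and 347, 269 and 257 on DMSO arrays. The LE540 arrays held both the lowest and the highest value, and the groups overlapped. On the log2 scale the change in LE540 vs DMSO was -0.34 (SE 0.34) with all arrays and 0.07 without LE540 replicate 1, and in ATRA vs DMSO it was -0.30 (SE 0.34, adjusted p = 0.999 in limma), or -0.11 without ATRA replicate 1.

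Lama4 (10362538), the laminin chain of vessels and mesenchyme, read 749, 874 and 814 on ATRA arrays, 517, 638 and 749 on LE540 arrays, and 641, 741 and 864 on DMSO arrays. Replicate 1 was the lowest of each group, and the highest LE540 array equalled the lowest ATRA array. Its log2 change came to 0.37 in ATRA vs LE540 (SE 0.16, unadjusted p = 0.0478, adjusted p = 0.518 in limma) and 0.23 without LE540 replicate 1. It was 0.13 in ATRA vs DMSO (0.02 without DMSO replicate 1) and -0.24 in LE540 vs DMSO (-0.10 without LE540 replicate 1).

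Lama5 (10490384), the broadly expressed alpha chain of mature basement membranes, was slightly lower on the LE540 arrays, without overlap. It measured 168, 161 and 170 on ATRA arrays, 142, 145 and 128 on LE540 arrays, and 170, 199 and 156 on DMSO arrays. All LE540 arrays were below all ATRA and DMSO arrays. The log2 change was -0.33 in LE540 vs DMSO (SE 0.11, unadjusted p = 0.0169, adjusted p = 0.536 in limma) and 0.27 in ATRA vs LE540 (SE 0.11, adjusted p = 0.499). Without LE540 replicate 1 the first of these was -0.35, and in ATRA vs DMSO the change was -0.06 (SE 0.11).

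Lama1 (10446473), the alpha chain of the early embryo, was below the array median on all arrays, at 78.2 to 93.2. Lama3 (10453939), the chain of the epidermal laminin, lay between 73.7 and 93.0 on 8 arrays and at 151 on DMSO replicate 1. Neither had an unadjusted p under 0.05 in limma in any comparison.

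Lamb1 (10395163), the beta chain with the known retinoid response in F9 cells, was not separated by added ATRA. Its intensity was 978, 1106 and 1012 on ATRA arrays, 301, 807 and 840 on LE540 arrays, and 928, 1023 and 950 on DMSO arrays. All LE540 arrays were below all others, replicate 1 by the widest margin, and the ATRA and DMSO arrays overlapped. The ratio of ATRA to DMSO was 1.05, 1.08 and 1.06 for replicates 1, 2 and 3. With the replicate block this change did not pass (adjusted p = 0.986 in limma). Means were 1032 ± 66.5 on ATRA arrays, 650 ± 302 on LE540 arrays and 967 ± 49.8 on DMSO arrays (SD, n = 3 each). The fitted log2 change in ATRA vs DMSO was 0.09 (95% confidence interval -0.68 to 0.86), an interval widened by the LE540 spread that the fit shares; without LE540 replicate 1 it was the same value at an unadjusted p of 0.309 in limma. In LE540 vs DMSO it was -0.71 (SE 0.34, unadjusted p = 0.0657, adjusted p = 0.583 in limma) with all arrays. Without LE540 replicate 1 it was -0.23, at an unadjusted p of 0.0439 and an adjusted p of 0.87 in limma. In ATRA vs LE540 the corresponding values were 0.81 (SE 0.34, adjusted p = 0.497) and 0.32.

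Lamb2 (10588942), the beta chain of synaptic and vascular basement membranes, gave 397, 290 and 332 on ATRA arrays, 266, 211 and 317 on LE540 arrays, and 332, 304 and 344 on DMSO arrays. Replicate 2 was the lowest of each group. The ATRA and DMSO arrays overlapped, and of the LE540 arrays only replicate 3 reached into their ranges. Its log2 change was -0.32 in LE540 vs DMSO (SE 0.17, adjusted p = 0.605 in limma), -0.33 without LE540 replicate 1, and 0.37 in ATRA vs LE540 (SE 0.17, adjusted p = 0.542). Lamb3 (10352838), the epidermal beta chain, was below the array median on every array, at 90.1 to 107.

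Lamc1 (10358816), the gamma chain of nearly all laminins, read 1767, 1761 and 1818 on ATRA arrays, 1345, 1596 and 1824 on LE540 arrays, and 1871, 2601 and 1813 on DMSO arrays. The ATRA arrays were close together, LE540 replicates 1 and 2 were below all other arrays, and DMSO replicate 2 was the highest by a wide margin. On the log2 scale the change in LE540 vs DMSO was -0.39 (SE 0.16, unadjusted p = 0.0395, adjusted p = 0.553 in limma), -0.28 without LE540 replicate 1 and -0.22 without DMSO replicate 2. Lamc3 (10471216), a gamma chain of few tissues, averaged 179 ± 16.2 on ATRA arrays, 169 ± 1.27 on LE540 arrays and 172 ± 0.90 on DMSO arrays (SD, n = 3 each), and its LE540 and DMSO arrays did not overlap although the log2 change was -0.03 (SE 0.09).

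Of the 4 genes caught by the start of their name, Itgb1bp1 (10399593), which binds the inner tail of Itgb1 and restrains it, measured 983, 776 and 899 on ATRA arrays, 1001, 1022 and 936 on LE540 arrays, and 838, 630 and 885 on DMSO arrays. Every LE540 array was above every DMSO array, and the ATRA arrays overlapped both. The log2 change was 0.34 in LE540 vs DMSO (SE 0.15, unadjusted p = 0.0444, adjusted p = 0.56 in limma), and it was 0.19 without DMSO replicate 2. Itgbl1 (10417212), a secreted protein built like the stalk of a beta chain, had 726, 373 and 1668 on ATRA arrays, 213, 325 and 952 on LE540 arrays, and 1034, 312 and 1674 on DMSO arrays. Replicate 3 was the highest of each group, and the spread within a group exceeded that between groups. Its log2 change came to -1.01 in LE540 vs DMSO (SE 0.78), -0.55 without LE540 replicate 1, -0.09 in ATRA vs DMSO and 0.92 in ATRA vs LE540 (SE 0.78, and with the replicate block SE 0.38 and an unadjusted p of 0.0462 in limma). Without LE540 replicate 1 the last of these values was 0.46, at an unadjusted p of 0.607 in limma without the block, and without ATRA replicate 3 it was 0.36.

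Itgb3bp (10514650), a centromere protein that also binds Itgb3, read 95.6, 79.7 and 123 on ATRA arrays, 55.6, 123 and 97.8 on LE540 arrays, and 145, 80.1 and 121 on DMSO arrays. The groups overlapped, and the log2 change was -0.19 in ATRA vs DMSO (SE 0.32) and -0.36 in LE540 vs DMSO (SE 0.32). Each rested on 1 array, being -0.01 in ATRA vs DMSO without DMSO replicate 1 and -0.03 in LE540 vs DMSO without LE540 replicate 1. Itgb1bp2 (10601178), melusin of striated muscle, was below the array median on every array, at 71.0 to 80.2.

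**Figure D3:**
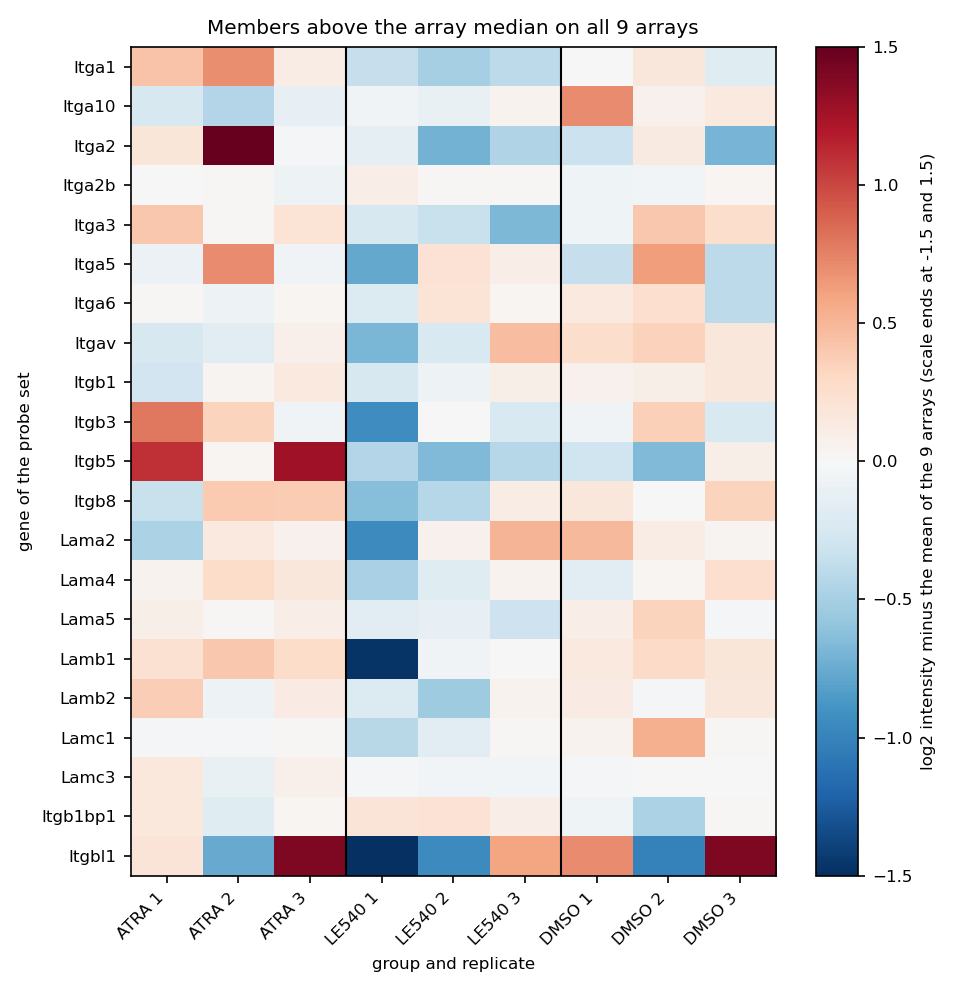
log2 intensity on each array minus the mean of the 9 arrays (colour), for the 21 members above the array median on every array, with ATRA, LE540 and DMSO arrays from left to right. The LE540 block is blue for Itga1 and Itga3, LE540 replicate 1 is darkest blue for Lamb1 and Itgbl1, and Itgbl1 is red on replicate 3 of each group. For Itgb5 the LE540 arrays and DMSO replicates 1 and 2 are blue, as ATRA replicates 1 and 3 raise the mean of the 9 arrays.

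Members were also summarised by brightness. The 21 members above the array median on every array had a median log2 change of 0.01 in ATRA vs DMSO, -0.33 in LE540 vs DMSO and 0.34 in ATRA vs LE540, against -0.01, 0.02 and -0.03 over all probe sets. For the 11 members below the array median on every array these medians were -0.09, -0.02 and -0.05. The median of all probe sets includes dim ones, and no median was taken over bright probe sets alone. Whether the 21 bright members differ from bright probe sets in general was therefore not tested. Nor were the medians by brightness taken without LE540 replicate 1, the array that stood apart. Without that array, some bright members showed a smaller change in LE540 vs DMSO and others a larger one, but the moves differed in size. The largest were upward, with Lamb1 from -0.71 to -0.23, Itgbl1 from -1.01 to -0.55 and Lama2 from -0.34 to 0.07. Itga2 moved furthest down, from -0.14 to -0.29. No filter on low values was used in the fit, so all 42 members were tested.

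Replicate number ordered several members in the same way in all 3 groups. Replicate 1 was the lowest of every group for 6 members (Itga11, Itga9, Itgam, Itgb1, Lama4 and Lamb1), as for 4.89% of all probe sets. Replicate 3 was the highest of every group for Itga4, Itga8, Itgb1, Itgb5 and Itgbl1, as for 4.21% of all. Replicate 2 was the lowest for Itga10, Itgb5, Lama3 and Lamb2 (6.15% of all) and the highest for Itga5 and Itga9 (6.75% of all). Replicate 1 was the highest for Itgb2 (8.4% of all), and replicate 3 was the lowest for 0 members (3.97% of all). Several marker sums followed a number too, while the cardiomyocyte, smooth muscle, valve interstitial and platelet sums did not. How often sums of other gene sets do so was not counted. The endothelial sum was highest on replicate 2 of each group, at 6102 with ATRA, 3552 with LE540 and 3530 with DMSO. That of leukocytes was highest on replicate 3, at 5553, 5391 and 6540 in the same order, narrowly with ATRA (5545 on replicate 2). The Schwann and neural crest sum was highest on replicate 1, at 645, 602 and 502. The epithelial and mesothelial sum was lowest on replicate 3, at 1225, 908 and 916. Whether these members follow any of these cell shares was not tested.

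**Figure D4:**
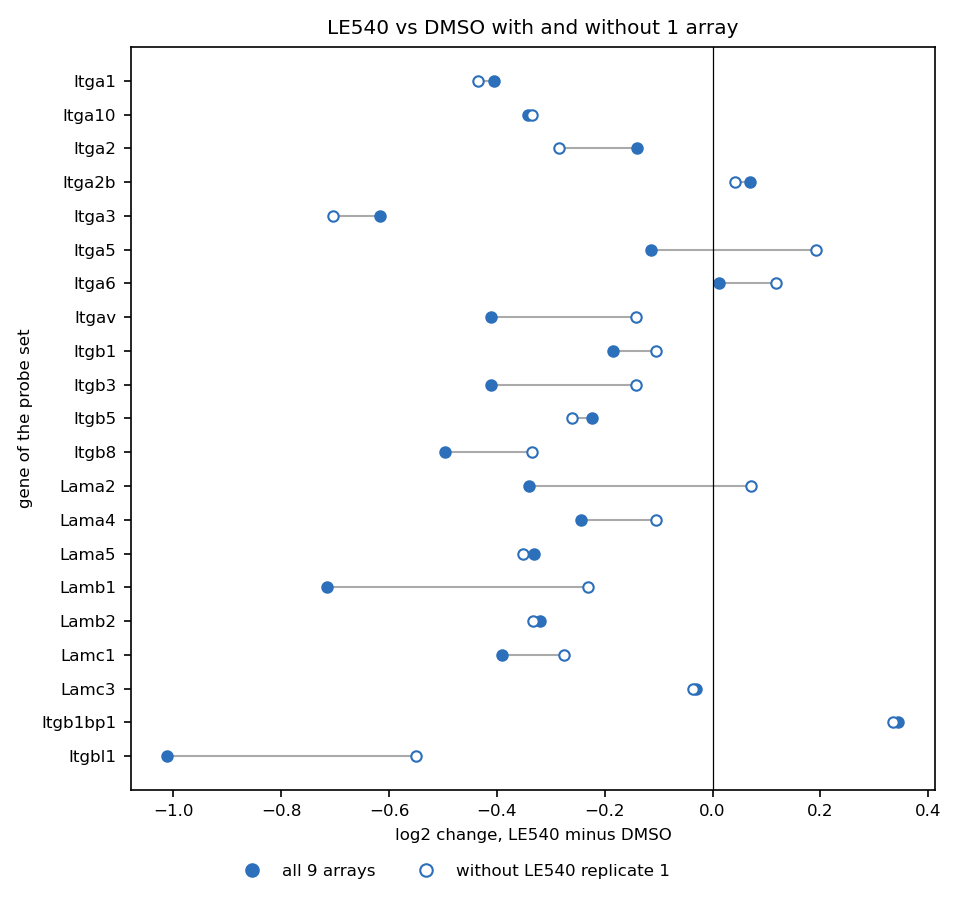
log2 change in LE540 vs DMSO of the 21 members above the array median on every array, with all 9 arrays (filled) and without LE540 replicate 1 (open). Lamb1 moves between -0.71 and -0.23 and Itgbl1 between -1.01 and -0.55, Itga5 and Lama2 cross 0, and Itga1, Itga3 and Lama5 stay between -0.33 and -0.70.

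The partners and ligands of integrins were read from gene lists. Each listed gene was read from 1 probe set, that with the highest mean, while the shares beside the counts cover all probe sets. Of 26 measured genes of the adhesion complex, which couples integrins to actin, 1 rose in ATRA vs LE540, Tns1, a tensin that binds beta chain tails, and 0 fell. An unadjusted p under 0.05 was found for 7 of 26 there, all higher (9.54% of all probe sets in either direction and 4.82% in that direction). Tns1 had 2017, 995 and 1617 on ATRA arrays, 290, 604 and 387 on LE540 arrays, and 1105, 778 and 932 on DMSO arrays, with no overlap between ATRA and LE540 (log2 change 1.86, SE 0.32, adjusted p = 0.0645 in limma), but it did not pass with the replicate block (adjusted p = 0.106). Actn1, an actin crosslinker at adhesions, was at 0.79 (SE 0.16, adjusted p = 0.131) and passed with that block (adjusted p = 0.0844). In ATRA vs DMSO 0 of 26 passed in limma and 4 had an unadjusted p under 0.05 (4.7% of all probe sets), with Tgfb1i1, a paxillin relative, at 0.70 (SE 0.14, adjusted p = 0.281) and Parvb, a parvin, at 0.60 (SE 0.16, adjusted p = 0.70). None of the 26 passed in LE540 vs DMSO and 3 had an unadjusted p under 0.05 (8.8% of all), with Tns1 at -1.19 (SE 0.32, adjusted p = 0.438) and Actn1 at -0.45 (SE 0.16, adjusted p = 0.541).

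Of 21 integrin ligands and their latent partners, 1 rose in ATRA vs LE540, Tgfb3, a TGF-beta whose latent form is opened by Itgav integrins, and 0 fell. An unadjusted p under 0.05 was found for 6 of 21, all higher (9.54% of all probe sets in either direction and 4.82% in that direction). Tgfb3 measured 554, 475 and 448 on ATRA arrays, 84.3, 149 and 128 on LE540 arrays, and 306, 300 and 276 on DMSO arrays. The 3 groups did not overlap, and the log2 change was 2.07 (SE 0.20, adjusted p = 0.00791 in limma, 0.0197 with the replicate block). Thbs1, a thrombospondin that also activates TGF-beta, was at 1.31 (SE 0.36, adjusted p = 0.264) and passed with the block (adjusted p = 0.0833). In ATRA vs DMSO 0 of 21 passed in limma and 3 had an unadjusted p under 0.05 (4.7% of all), with Tgfb3 at 0.74 (SE 0.20) and Postn, periostin, at 0.66 (SE 0.27). Of the 21, 0 passed in LE540 vs DMSO and 4 had an unadjusted p under 0.05 (8.8% of all), with Tgfb3 at -1.33 (SE 0.20, adjusted p = 0.155) and Npnt, nephronectin, the ligand of Itga8, at -1.08 (SE 0.33, adjusted p = 0.497).

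Of 18 basement membrane genes other than laminins, 0 passed in any comparison in limma, while an unadjusted p under 0.05 was found for 2 in ATRA vs DMSO (4.7% of all probe sets), 3 in LE540 vs DMSO (8.8%) and 3 in ATRA vs LE540 (9.54%). Nid1, the nidogen that links laminin to collagen, averaged 920 ± 107 on ATRA arrays, 539 ± 165 on LE540 arrays and 791 ± 24.3 on DMSO arrays (SD, n = 3 each), with a log2 change of 0.82 in ATRA vs LE540 (SE 0.22, adjusted p = 0.249) and -0.60 in LE540 vs DMSO (SE 0.22, adjusted p = 0.541). Nid2, its relative, was at 0.76 in ATRA vs LE540 (SE 0.32), Smoc2, a matricellular protein, at -0.42 in LE540 vs DMSO (SE 0.11), and Hspg2, perlecan, at 0.35 in ATRA vs DMSO (SE 0.14), beside Col4a6, a collagen IV chain, at 0.29.

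Of 10 other laminin receptors, 0 passed in any comparison in limma, and 1 had an unadjusted p under 0.05 in each, against 4.7% of all probe sets in ATRA vs DMSO, 8.8% in LE540 vs DMSO and 9.54% in ATRA vs LE540. Sgcb, a sarcoglycan of the muscle laminin receptor complex, was lower in ATRA vs DMSO at -0.61 (SE 0.16, adjusted p = 0.693) and in LE540 vs DMSO at -0.44 (SE 0.16, adjusted p = 0.541), 2 comparisons that share the DMSO arrays. Sdc4, a syndecan that acts beside integrins at adhesions, was at 0.72 in ATRA vs LE540 (SE 0.18, adjusted p = 0.228) and passed with the replicate block (adjusted p = 0.0838). The valve interstitial markers, whose sums were given at the start, included 5 of 12 with an unadjusted p under 0.05 on the higher side of ATRA vs LE540 (4.82% of all probe sets), 1 of which passed. The smooth muscle sum ran from 5127 to 10751 on ATRA arrays, from 2684 to 4307 on LE540 arrays and from 2662 to 5258 on DMSO arrays. All 12 endothelial markers lay above 0 in ATRA vs DMSO and in ATRA vs LE540 (48.5% and 43.1% of all probe sets). In ATRA vs LE540, 1 of these 12 passed. Of 13 cardiomyocyte markers, 2 lay above 0 in each of these comparisons. Of 9 epithelial and mesothelial markers, 1 passed in each (0.0812% and 0.603% of all probe sets). The part of these cell populations in the integrin and laminin values was not tested.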

How the data were processed

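Expression was measured in 9 pools of valves, 1 array each. Values are RMA intensity values on a linear scale, as deposited by the authors; Expression Console 1.1 and RMA are listed among the tools, per the submitters' processing notes. RNA was amplified with a Nugen kit before hybridisation, per the labels' protocols. Gene names came from GEO's platform annotation, which can be old (21780 probe sets with 1 symbol, 1617 with several, 4873 unnamed here). The genome build is not given in the sources used here. Array medians ran from 123.61 to 128.13 intensity units, and the number of arrays limits precision. log2 was taken, and limma 3.58.1 in R 4.3.3 was fitted to all 23397 probe sets with a symbol, with 3 groups (two-sided moderated tests, Benjamini-Hochberg over all). Members passed at an adjusted p under 0.1, the design text's threshold, which it joins with a fold over 2. The fit was tested on simulated data of independent arrays, which had no deviations shared by replicate number and no array standing apart. Replicates are pools the labels call biological, so p-values measure the spread between pools.

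Same-numbered arrays deviated together from their group means: r over probe sets was 0.143, 0.342 and 0.22 for ATRA and DMSO and 0.261, 0.282 and 0.269 for ATRA and LE540. It was 0.00946, 0.215 and 0.126 for LE540 and DMSO, where LE540 replicates 1 and 3 had a higher r with a DMSO array of another number. The numbers come from the sample titles. A fit with the number as a block is therefore given in the comparisons with ATRA where it changes a call.

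All 42 members matched a RefSeq symbol. Members and gene lists (adhesion complex, ligands, basement membrane, other laminin receptors, retinoic acid targets and cell markers) were chosen with earlier results of these data known. Named were members that passed, up to 3 per family and comparison with an unadjusted p under 0.05 or else the largest change, 16 members fixed by name, 5 leukocyte or platelet members, and passing genes of each list or else 2 with the largest change at an unadjusted p under 0.05. Other members and genes (Itga6, Itga7, Itgb4, Itgb6, Itgae, Itgad, Itgb2l, Itgb7, Itgb1bp2, Lama1, Lama3, Lamb3, Lamc3, Vcam1 and list genes that passed only with the block) are named to account for all probe sets or after their values were seen. Promoters were searched for 4 forms of the half-site. Alternatives are given in the closing section.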

Additional observations from a re-analysis of the deposited data

How the results depend on the processing

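In ATRA vs DMSO and LE540 vs DMSO, 0 members passed in the main fit and in all 20 alternatives of each. The 1 member passing in ATRA vs LE540 became 0 with the arrays of the 2 groups alone, with arrays centred on the median, with a trended and robust prior, with array weights, with all rows tested and at an adjusted p under 0.05; it became 3 with the replicate block, and 0 to 2 when each array was left out in turn (Itga4 and Itgb5 without ATRA replicate 2, Itga1 and Itgb2 without ATRA replicate 3, Itga4 without LE540 replicate 3). Itga1 kept its direction throughout, with log2 changes of 0.68 to 0.98. Members with an unadjusted p under 0.05 numbered 4 in ATRA vs DMSO (7 with the block, 2 to 6 with an array left out), 6 in LE540 vs DMSO (10 with the block, against 11.3% of all probe sets, 2 to 8 with an array left out) and 10 in ATRA vs LE540 (6 to 10 with an array left out); the pairing adds Itgb8, Itgbl1, Lamb1 and Lamb2 in LE540 vs DMSO, where the numbers pair less clearly, 0 members passed and 0.00427% of all probe sets did. Over all probe sets, 19 passed in ATRA vs DMSO (9 with the 2 groups alone, 71 with array weights, 12 with 1 probe set per gene, 29 with the block, 4 to 22 with an array left out). In LE540 vs DMSO 7 passed (1 with the 2 groups alone, 0 after quantile normalization or with all rows, 12 with 1 probe set per gene, 1 with the block, 0 to 297 with an array left out). In ATRA vs LE540 141 passed (25 with the 2 groups alone, 221 with the block, 54 to 278 with an array left out). Fewer arrays leave fewer degrees of freedom; the cause of the other shifts was not tested. No called value reversed. Dim members lack a measure of signal over background, so their order is uncertain.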
